A study of Xenopus laevis with 14 samples.

Results

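The genes neurod1, ebf2, sox1, sox3, zic1 and otx1 encode transcription factors of the developing nervous system. The 6 genes were chosen with earlier results of these data known, and their probe sets were then taken by name. Every probe set whose platform symbol, without the ending .L or .S, is one of these 6 genes was included. This gave 10 probe sets for 9 gene copies, of 24218 probe sets and 9715 gene symbols in all. The endings .L and .S mark the copies of a gene on the long and short subgenomes of Xenopus laevis, the African clawed frog. Each copy had 1 probe set except zic1.S, which had 2. All 10 were measured at both stages studied.

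Sox1 and Sox3 belong to the SoxB1 family, which keeps neural cells in a dividing, undifferentiated state. Zic1 is a zinc finger factor of the neural plate and its border, and Otx1 is a homeobox factor of the forebrain, midbrain and sense organs. Neurod1 is a basic helix-loop-helix (bHLH) factor that acts as progenitors become neurons, and it also acts in endocrine cells of the pancreas. Ebf2 is a factor of the Ebf family that takes part in the same step of neuronal differentiation in Xenopus. Ptf1a, the factor that was overexpressed, is itself a bHLH protein needed for exocrine pancreas and for inhibitory neurons.

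Control embryos had received 400 pg of GFP mRNA, and the others 800 pg of Ptf1a mRNA beside the same amount of GFP mRNA, in both dorsal vegetal blastomeres at the 8-cell stage. Anterior endoderm, the precursor of pancreas, liver, stomach and duodenum, was dissected at the tailbud stages NF32 and NF36 and pooled from about 15 embryos per array. NF32 had 3 arrays per group and NF36 had 4. All embryos were otherwise unmodified as far as the labels say, every control carried GFP, and the total mRNA dose differed between the groups along with Ptf1a. The labels say that control and Ptf1a samples shared a batch of embryos, and same-numbered GFP and Ptf1a arrays were taken as pairs.

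The ptf1a probe set was higher in every Ptf1a array. At NF32 it read 18.3, 14.9 and 7.7 in GFP replicates 1 to 3 and 209.5, 386 and 347 in Ptf1a replicates 1 to 3. At NF36 it read 25.5, 33.3, 31.5 and 29.8 in GFP and 117, 143, 319 and 136 in Ptf1a replicates 1 to 4. It was not tested whether this probe set reads the injected mRNA or transcript of the embryo. Endoderm markers had a summed intensity over 14 gene copies of 4641 to 4997 on GFP and 4384 to 4880.0 on Ptf1a arrays at NF32. Markers of other tissues also gave signal: in the GFP arrays of NF32 the 23 neuron marker copies summed to 799 to 964, with 11 of them at a mean under 16, and the 13 epidermis copies to 13691 to 15635.

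Intensities are linear values on the authors' scale, with a mean of about 140 per array at NF32 (140.19 to 140.36) and 100 at NF36, so levels were not compared between stages or between probe sets. Changes are differences of log2(intensity + 16), Ptf1a minus GFP, given ± SE and tested with limma over all probe sets of the stage; a change was called at an adjusted p under 0.05. Because of the 16, changes of dim probe sets read smaller than their ratios of intensity. All 10 probe sets were dim: over both groups together, each had a mean below the stage's median. In the Ptf1a arrays of NF32 alone, ebf2.S and sox3.S had means above those of 59.1% and 55.4% of probe sets, but sox1.S above only 9.1%. GFP means at NF32 exceeded from 0.15% (zic1.S, Xl2.1796.1.S1_at) to 37.9% (neurod1.S) of probe sets, with 1.4% for sox1.S and 2.4% for otx1.L. At NF36 they exceeded from 0.21% (the same zic1.S probe set) to 17.5% (ebf2.L). No detection calls were used here, so the values carry no statement of which probe sets exceeded background. In pooled tissue, more cells that express a gene and more RNA per cell cannot be told apart.

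**Figure D1:**
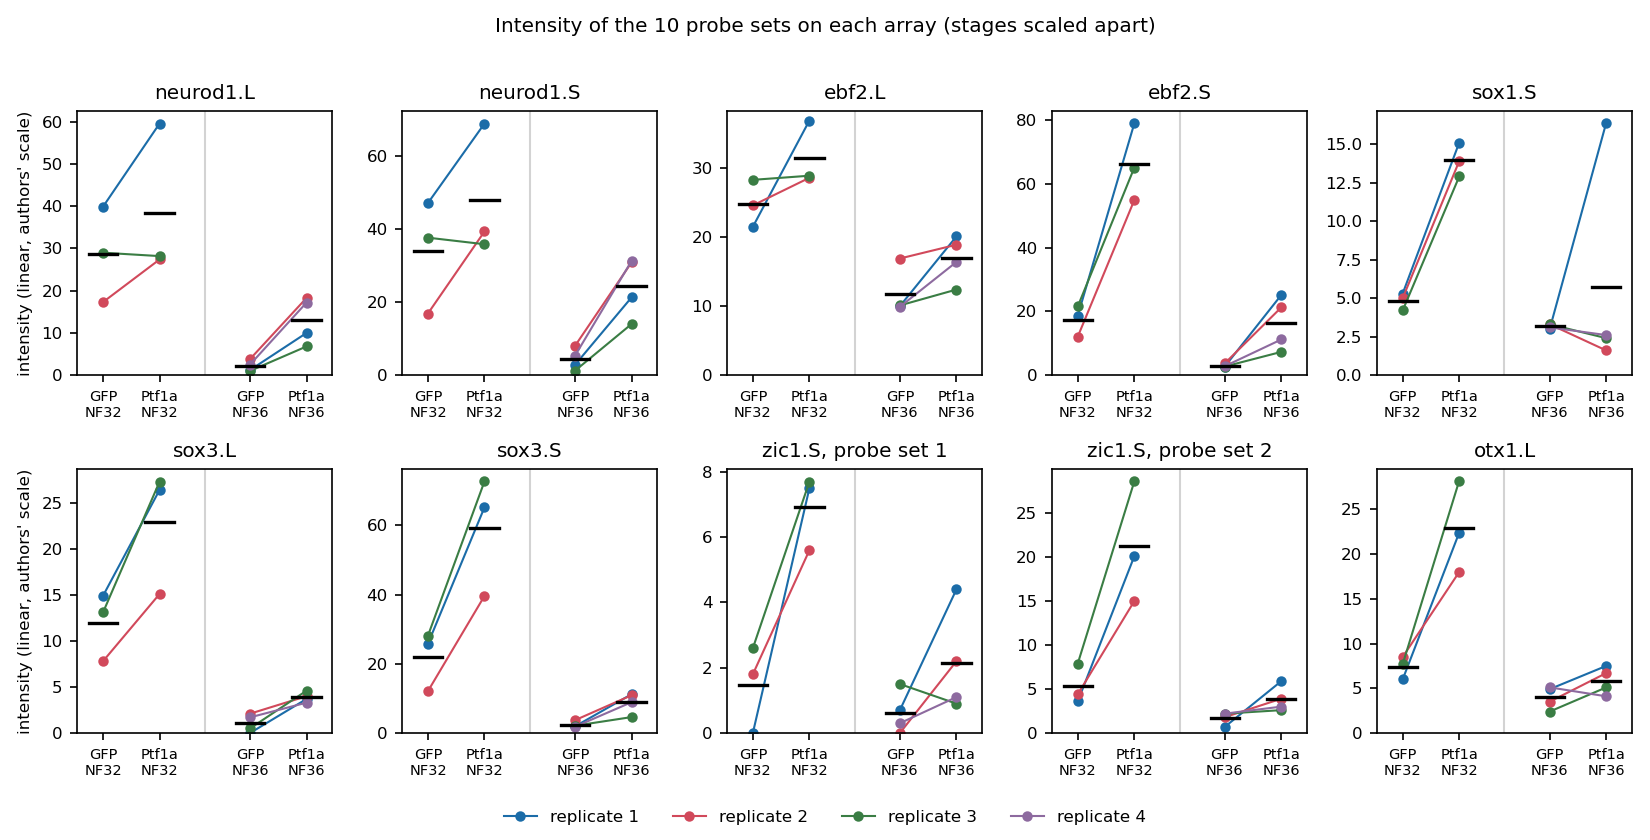
Linear intensity (y axis, from 0) of each of the 10 probe sets on every array, by group (x axis), with lines joining same-numbered GFP and Ptf1a arrays and black bars for group means. At NF32 the Ptf1a arrays lay above all GFP arrays for 8 probe sets, the exceptions being both copies of neurod1, and at NF36 for 6. Stages were scaled apart; probe sets 1 and 2 of zic1.S are Xl2.1796.1.S1_at and Xl2.1796.1.S2_at.

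At NF32, 4 of the 10 probe sets were called, all higher in Ptf1a explants: ebf2.S, sox1.S, otx1.L and 1 of the 2 of zic1.S. Of all 22855 probe sets of the stage, 1.96% were called higher. Since the genes were chosen with earlier results of these data known, shares given here and below are descriptions and not a test of the set. With the replicate number as a block, 7 of 10 were called higher, against 5.03% of all, the added ones being sox3.L, sox3.S and the second zic1.S probe set. Every Ptf1a array lay above every GFP array for 8 of 10, against 10.7% of all. The median change of the 10 was 0.50 and that of all probe sets -0.01.

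Among the progenitor factors, sox1.S (Xl2.55964.1.S1_at) read 5.3, 5.0 and 4.2 in GFP and 15.1, 13.9 and 12.9 in Ptf1a replicates 1 to 3 at NF32. The groups were far apart relative to their spread (4.83 ± 0.57 against 14.0 ± 1.1, SD, n = 3 each). The log2 change was 0.52 ± 0.07 (limma adjusted p = 0.0140). It was 0.0738 without GFP replicate 2 and 0.0546 without Ptf1a replicate 2, while the change stayed between 0.50 and 0.55 whichever of the 6 arrays was left out.

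The other SoxB1 gene, sox3, differed between replicates in both groups. Its copy sox3.S (Xl2.22.1.S1_at) read 25.8, 12.1 and 28.1 in GFP and 65.2, 39.6 and 72.7 in Ptf1a replicates 1 to 3, so replicate 2 was the lowest in each group. The pair differences were nearly equal, at 0.96, 0.98 and 1.01 on the log2 scale. The change of 0.98 ± 0.23 was not called without the block (limma adjusted p = 0.0780) and was called with it (0.98 ± 0.06, adjusted p = 0.00136). The copy sox3.L (Xl2.21447.1.S1_at) read 14.9, 7.8 and 13.1 in GFP and 26.4, 15.1 and 27.3 in Ptf1a, again lowest in replicate 2. Its change was 0.47 ± 0.16 (adjusted p = 0.197, and 0.0143 with the block). For both copies every Ptf1a array exceeded every GFP array.

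The 2 probe sets of the neural plate border gene zic1.S were both higher in every Ptf1a array at NF32. Xl2.1796.1.S2_at read 3.6, 4.4 and 7.9 in GFP and 20.1, 15.0 and 28.6 in Ptf1a replicates 1 to 3, a change of 0.79 ± 0.15 (limma adjusted p = 0.0384). Xl2.1796.1.S1_at was dimmer, listed at 0 in GFP replicate 1 and at 1.8 and 2.6 in the others, against 7.5, 5.6 and 7.7 in Ptf1a. Its change of 0.39 ± 0.09 was called only with the block (adjusted p = 0.0661, and 0.0343 with it). The calls thus differed between probe sets of 1 transcript, while the direction was the same.

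The forebrain and midbrain factor otx1.L (Xl2.781.1.S1_at) rose as well. It read 6.0, 8.5 and 7.7 in GFP and 22.4, 18.0 and 28.2 in Ptf1a replicates 1 to 3 (7.40 ± 1.28 against 22.9 ± 5.12), with no overlap. The log2 change was 0.73 ± 0.11 (limma adjusted p = 0.0210). With 1 array left out at a time, otx1.L and zic1.S (Xl2.1796.1.S2_at) were each called in 1 of 6 fits, the one without Ptf1a replicate 2. Their adjusted p ran from 0.0307 to 0.0896 for otx1.L and from 0.0451 to 0.174 for zic1.S.

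Of the factors of neuronal differentiation, ebf2.S (Xl2.547.1.A1_at) had the largest change of the 10 at NF32 on the log2(intensity + 16) scale. It read 18.7, 12.1 and 21.6 in GFP and 79.1, 55.0 and 65.2 in Ptf1a replicates 1 to 3, a ratio of group means of 3.80, where that of zic1.S (Xl2.1796.1.S2_at) was 4.01. The change was 1.30 ± 0.15 (limma adjusted p = 0.00792) and it was called whichever of the 6 arrays was left out (adjusted p 0.0149 to 0.0382). Of the 22855 probe sets, its GFP mean exceeded 16.9% and its Ptf1a mean 59.1%. The copy ebf2.L (Xl2.237.1.S1_at) read 21.5, 24.6 and 28.3 against 36.9, 28.6 and 28.9. Its groups did not overlap, but its change of 0.22 ± 0.10 was not called (adjusted p = 0.370, 95% interval -0.03 to 0.46).

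The neurod1 copies were not called at NF32. neurod1.S (Xl2.26304.1.S1_at) read 47.2, 16.9 and 37.7 in GFP and 69.0, 39.4 and 35.9 in Ptf1a replicates 1 to 3, and neurod1.L (Xl2.330.1.S1_at) read 39.9, 17.3 and 29.0 against 59.6, 27.4 and 28.2. The groups overlapped, replicate 1 was the highest array of its group for both copies, and 2 of 3 pairs were higher in Ptf1a. The changes were 0.38 ± 0.28 for neurod1.S (limma adjusted p = 0.611, 95% interval -0.29 to 1.04) and 0.26 ± 0.27 for neurod1.L (adjusted p = 0.722, 95% interval -0.37 to 0.89). With the block the adjusted p was 0.183 and 0.182. On the log2 scale used for these changes, the neurod1.S change at NF36, given next, lies inside the first interval. The ratio of its group means was 1.42 at NF32 and 5.64 at NF36. With an offset of 1 before the logarithm, the neurod1.S changes were 0.55 ± 0.42 at NF32 and 2.38 ± 0.44 at NF36. The comparison with the first interval therefore depends on the scale, and it does not show that the stages had equal changes.

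**Figure D2:**
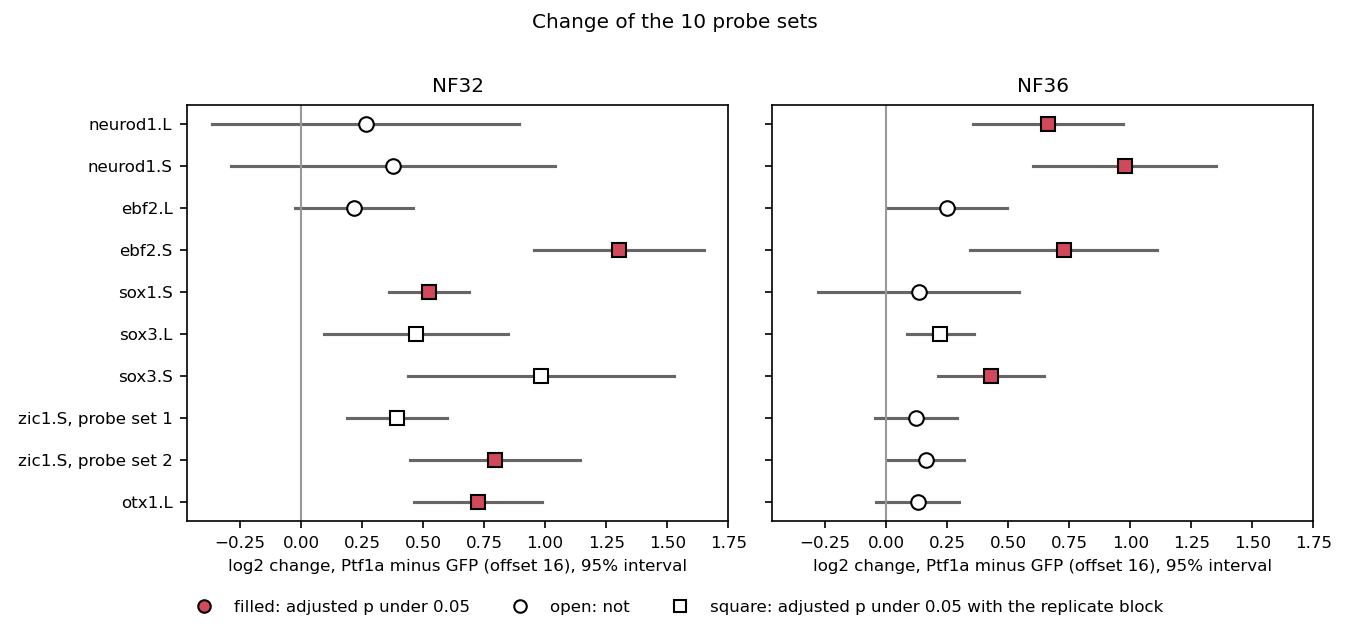
Log2 change of the 10 probe sets, Ptf1a minus GFP, with 95% intervals from limma (x axis), at NF32 (left) and NF36 (right). Filled marks were called at an adjusted p under 0.05 and squares were called with the replicate block. All 10 changes lie above 0 at both stages, as do 11038 of 22855 probe sets at NF32 and 11937 of 23614 at NF36.

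At NF36, 4 of the 10 probe sets were called, all higher: neurod1.L, neurod1.S, ebf2.S and sox3.S. Of all 23614 probe sets of the stage, 3.59% were called higher. With the block 5 of 10 were called higher, sox3.L being added, against 12.6% of all. Every Ptf1a array lay above every GFP array for 6 of 10, against 7.85% of all, and the median change was 0.24 against 0.00 over all probe sets. ebf2.S was thus the 1 probe set called at both stages without the block.

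The neuronal and endocrine factor neurod1 rose at NF36 in both copies. neurod1.S read 2.8, 8.0, 1.2 and 5.3 in GFP and 21.3, 30.9, 14.0 and 31.3 in Ptf1a replicates 1 to 4. neurod1.L read 1.2, 3.8, 1.0 and 2.5 in GFP and 10.0, 18.3, 6.8 and 17.2 in Ptf1a. In each copy the Ptf1a arrays all exceeded the GFP arrays, Ptf1a replicate 3 was the lowest of its group, and replicates 2 and 4 were the highest. The changes were 0.98 ± 0.16 for neurod1.S (limma adjusted p = 0.0164) and 0.66 ± 0.13 for neurod1.L (adjusted p = 0.0294), and 4 of 4 pairs were higher for both. With 1 array left out at a time neurod1.S was called in 6 of 8 fits, the others giving adjusted p of 0.0511 without GFP replicate 3 and 0.0517 without Ptf1a replicate 4. neurod1.L was called in 2 of 8, those without Ptf1a replicate 1 or 3 (adjusted p over the 8 from 0.0123 to 0.0854).

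Since neurod1 also acts in endocrine cells, markers of endocrine pancreas were read beside it. Of the 6 measured copies of 4 endocrine genes (of 10 listed), none was called higher at NF36 and 2 were called lower, the insulin genes ins.L (-1.40 ± 0.07, limma adjusted p = 6.77e-04) and ins.S (-1.29 ± 0.14, adjusted p = 0.00434). Of all 23614 probe sets, 446 were called lower at NF36. The summed intensity of the 6 endocrine copies was 194 to 218 on GFP and 74.5 to 102 on Ptf1a arrays, with none at 0 on every array. At NF32 1 of the 6 was called higher, pcsk2.L (0.53 ± 0.10, adjusted p = 0.0481), a prohormone convertase gene that neurons express too. That call was lost whichever of the 6 arrays was left out (adjusted p 0.0663 to 0.152). With the block 2 copies were also called lower at NF32, and the sums were 106 to 167 on GFP and 83.2 to 103 on Ptf1a arrays. Of all 22855 probe sets of NF32, 1.96% were called higher, and 958 were called lower with the block. The part of endocrine cells in the neurod1 values was not tested.

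The Ebf gene ebf2.S and the SoxB1 gene sox3.S rose at NF36 as well. ebf2.S read 2.7, 3.7, 2.7 and 2.8 in GFP and 25.2, 21.3, 7.3 and 11.2 in Ptf1a replicates 1 to 4, so the groups did not overlap and the Ptf1a arrays spread over 3-fold. Its change was 0.73 ± 0.17 (limma adjusted p = 0.0444). sox3.S read 1.9, 3.7, 2.1 and 1.8 in GFP and 11.2, 10.9, 4.6 and 8.9 in Ptf1a, a change of 0.43 ± 0.10 (adjusted p = 0.0383). With 1 array left out at a time, both calls held in 1 of 8 fits, the one without Ptf1a replicate 3. Their adjusted p over the 8 fits ran from 0.0151 to 0.115 for ebf2.S and from 0.0101 to 0.107 for sox3.S. sox3.L, listed at 0 in GFP replicate 1 and at 2.1, 0.5 and 1.7 in the others, read 3.7, 4.0, 4.6 and 3.3 in Ptf1a (0.22 ± 0.06, adjusted p = 0.0747, and 0.0254 with the block).

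The remaining probe sets were not called at NF36 with or without the block. ebf2.L read 10.0, 16.9, 10.1 and 9.9 in GFP and 20.1, 18.9, 12 and 16.4 in Ptf1a replicates 1 to 4 (0.25 ± 0.11, limma adjusted p = 0.238, and 0.0505 with the block). otx1.L read 4.9, 3.5, 2.4 and 5.1 in GFP and 7.5, 6.7, 5.1 and 4.1 in Ptf1a (0.13 ± 0.07, adjusted p = 0.413, 95% interval -0.04 to 0.30). The brighter zic1.S probe set (Xl2.1796.1.S2_at) read 0.7, 1.8, 2.2 and 2.2 against 5.9, 3.9, 2.6 and 3.0 (0.16 ± 0.07, adjusted p = 0.238). The dimmer one (Xl2.1796.1.S1_at) read 0.7, 0, 1.5 and 0.3 against 4.4, 2.2, 0.9 and 1.1 (0.12 ± 0.07, adjusted p = 0.435).

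The neural progenitor gene sox1.S was high in 1 Ptf1a array of NF36. It read 3.0, 3.3, 3.3 and 3.1 in GFP and 16.4, 1.6, 2.4 and 2.6 in Ptf1a replicates 1 to 4, so replicates 2 to 4 lay below every GFP array and replicate 1 far above. The change was 0.13 ± 0.18 (limma adjusted p = 0.817), and without Ptf1a replicate 1 it was -0.08 (adjusted p = 0.553).

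**Figure D3:**
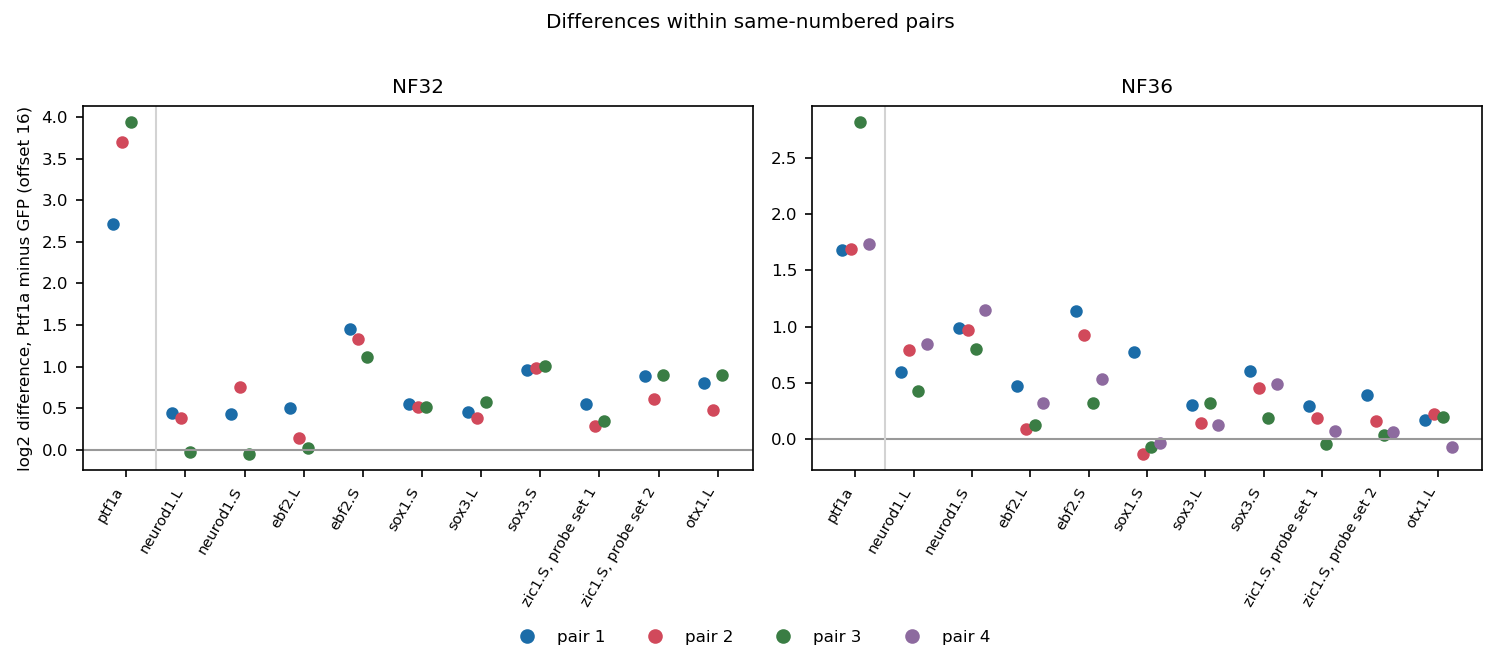
Differences of log2(intensity + 16), Ptf1a minus GFP, within each same-numbered pair (points) for ptf1a and the 10 probe sets (x axis), at NF32 (left) and NF36 (right, different y scale). The pair differences of sox3.S at NF32 lie between 0.96 and 1.01, whereas those of sox1.S at NF36 run from -0.13 to 0.77.

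The values of the 10 probe sets were not equal over the Ptf1a arrays of NF36. Of the 10 probe sets, 7 had their highest Ptf1a value in replicate 1 and 7 their lowest in replicate 3. Replicate 3 was the array with the highest ptf1a value (319). Replicate 1 had the lowest (117), near those of replicates 2 and 4 (143 and 136). At NF32 replicate 2 had the highest ptf1a value (386) and the lowest Ptf1a-group value of 8 of the 10. The GFP partner of that array was itself the lowest GFP array in the summed intensity of the 10 probe sets (110.5, against 183 and 180.2). At NF36 the GFP partner of Ptf1a replicate 3 was likewise the lowest GFP array (27.0, against 27.9, 46.8 and 34.7 in GFP replicates 1, 2 and 4). The counts above are of array values and not of pair differences. Their relation to the ptf1a values was not tested.

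Whether the change differed between stages was tested as a contrast over 22251 shared probe sets, of which 0.777% were called, and 5.47% with the block. Of the 10, none was called without the block (5 at an unadjusted p under 0.05, against 8.36% of all) and 3 were called with it, all with the smaller change at NF36. otx1.L changed by 0.73 at NF32 and 0.13 at NF36, a difference of -0.60 ± 0.13 (limma adjusted p = 0.0582, and 0.0239 with the block). For zic1.S (Xl2.1796.1.S2_at) the difference was -0.63 ± 0.16 (adjusted p = 0.0990, and 0.0164 with the block). For sox3.S it was -0.55 ± 0.25 (adjusted p = 0.559, and 0.0169 with the block), but 0.10 with 1 in place of 16 added before the logarithm. The neurod1 copies had the larger value at NF36, but the differences of 0.60 ± 0.34 for neurod1.S (adjusted p = 0.800) and 0.40 ± 0.30 for neurod1.L (adjusted p = 1.00) were not called. With 1 in place of 16, neurod1.S changed by 0.55 at NF32 and 2.38 at NF36, and neurod1.L by 0.39 and 2.17. The difference between stages was not called for either copy in that setting. For sox1.S the difference was -0.39 ± 0.23 (adjusted p = 0.843). It was called in 1 of 14 fits with 1 array left out, the one without Ptf1a replicate 1 of NF36 (-0.60 ± 0.08, adjusted p = 0.00357). That array is singled out here by its own high sox1.S value, so this p is a description and not a test. With 1 array left out at a time, the difference of otx1.L was called in 2 of 14 fits (adjusted p 0.0389 to 0.135). Those were the fits without Ptf1a replicate 2 of NF32 (0.0416) and without Ptf1a replicate 1 of NF36 (0.0389). That of zic1.S (Xl2.1796.1.S2_at) was called in 1 of 14 fits, the one without Ptf1a replicate 2 of NF32 (adjusted p 0.0487 to 0.234). The added 16 weighs more at NF36, where arrays were scaled to a lower mean. Which chip version the NF36 arrays used is not settled either, since the series description names an older one than their probe set identifiers belong to.

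The 2 subgenome copies could be set against each other for neurod1, ebf2 and sox3. The difference between .S and .L copies on each array was compared between groups by a 2-sided exact permutation test, with adjusted p over the 6 comparisons. At NF36 the difference was larger in Ptf1a than in GFP arrays by 0.48 for ebf2 and by 0.31 for neurod1 (exact p = 0.0286 each, the smallest that 4 against 4 allow, adjusted p = 0.0857) and by 0.21 for sox3 (exact p = 0.143, adjusted p = 0.171). At NF32 it was larger by 1.08 for ebf2 and 0.51 for sox3 (exact p = 0.10 each, the smallest that 3 against 3 allow, adjusted p = 0.15) and by 0.11 for neurod1 (exact p = 0.50, adjusted p = 0.50). With these sizes the smallest adjusted p possible over the 6 comparisons is 0.0571, so none could pass 0.05, and whether each probe set reads 1 copy alone was not tested. With 1 in place of 16 added before the logarithm, the NF36 value was 0.21 for neurod1 (exact p = 0.371) and 1.47 for ebf2 (exact p = 0.0286). On the log2(intensity + 16) scale the .S copy had the larger change in 6 of 6 comparisons, which are the same genes at 2 stages. By ratio of group means, neurod1.L exceeded neurod1.S at NF36 (6.15 against 5.64) but not at NF32 (1.34 against 1.42). The tally was not tested.

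Related genes of the same families mostly had changes above 0, with no call without the block. Of 28 listed bHLH, Ebf and other neurogenic factors, 6 had a measured copy. None of the 6 was called at NF32 without the block. At an unadjusted p under 0.05 in limma there were 4, against 16.2% of all probe sets. With the block 4 were called, all higher, against 5.03% of all probe sets called higher. All 6 had a change above 0, against 11038 of all 22855 probe sets, with a median of 0.44. nhlh1.L, a bHLH factor of young neurons, read 2.83 ± 2.06 in GFP and 11.9 ± 3.73 in Ptf1a (0.56 ± 0.13, adjusted p = 0.0685, and 0.0135 with the block). myt1.S, a zinc finger factor that promotes neurogenesis in Xenopus, went from 3.63 ± 0.15 to 10.3 ± 3.30 (0.42 ± 0.10, adjusted p = 0.0857, and 0.0404 with the block). At NF36 none was called either (3 at an unadjusted p under 0.05, against 19.6% of all probe sets), with a median of 0.11. With the block 2 were called, both higher, against 12.6% of all probe sets called higher. The 2 with the smallest p were neurod4.L, a neurod1 relative (0.37 ± 0.10, adjusted p = 0.0820, and 0.0311 with the block), and ebf3.L, an ebf2 relative (0.57 ± 0.17, adjusted p = 0.0990, and 0.00324 with the block).

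Of 31 listed Sox, Zic, Otx and other early neural genes, 20 copies of 14 genes were measured at NF32. None was called without the block (8 at an unadjusted p under 0.05 in limma, beside the same 16.2%). With the block 5 were called, all higher, against 5.03% of all probe sets called higher. Of the 20 changes 19 lay above 0, against 11038 of all 22855 probe sets, with a median of 0.29. The copies share the same arrays, so this count was not tested. The copies zic2.L (4.83 ± 0.91 to 17.3 ± 5.90, 0.66 ± 0.13, adjusted p = 0.0507, and 0.0134 with the block) and zic2.S (5.33 ± 1.34 to 11.4 ± 0.72, 0.36 ± 0.08, adjusted p = 0.0599, and 0.0333 with the block), close relatives of zic1, had the smallest p. At NF36, 21 copies of 15 genes were measured and none was called. Of the 21 changes 18 lay above 0, against 11937 of all 23614 probe sets, with a median of 0.13. At an unadjusted p under 0.05 in limma there were 7, against 19.6% of all probe sets. With the block 4 were called higher and 1 lower. Of all 23614 probe sets, 2977 (12.6%) were called higher and 2554 lower with the block. The smallest p belonged to gmnn.L, which encodes the replication licensing inhibitor geminin (0.28 ± 0.09, adjusted p = 0.119, and 0.0253 with the block), and msi1.L, an RNA-binding protein gene of neural progenitors (0.23 ± 0.08, adjusted p = 0.137, and 0.0240 with the block). The 1 that was lower is named after its values were seen: it was sox2.L, another SoxB1 gene (-0.53 ± 0.22, adjusted p = 0.221, and 0.0219 with the block). With 1 in place of 16 added before the logarithm, 1 and 2 genes of the bHLH and Ebf list were called at NF32 and NF36, and 2 and 1 of the other list.

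**Figure D4:**
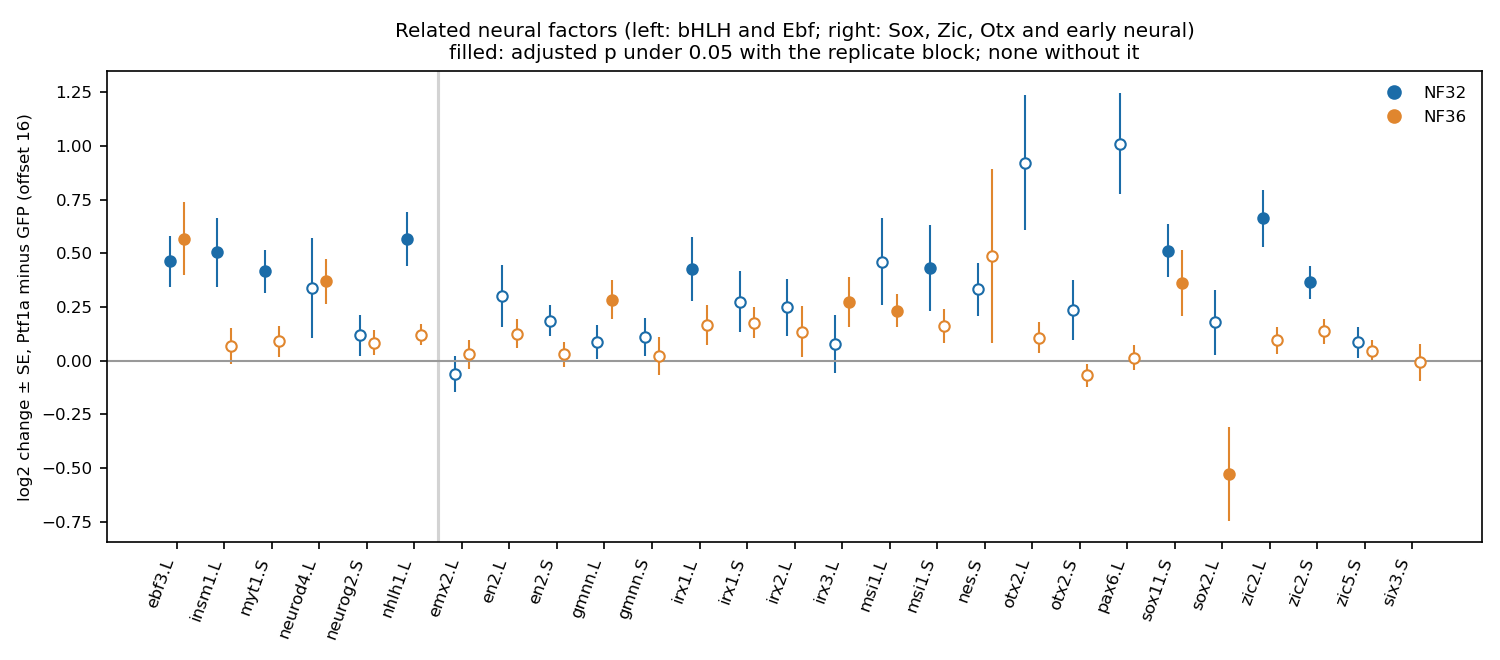
Log2 change ± SE, Ptf1a minus GFP (y axis), of each measured copy of the bHLH and Ebf list (left of the line) and of the Sox, Zic, Otx and early neural list (right of it), at NF32 (blue) and NF36 (orange). Filled points were called with the replicate block, and none was called without it. sox2.L at NF36 is the 1 filled point below 0. The points of pax6.L come from different probe sets, Xl2.647.7.S1_at at NF32 (1.01) and Xl2.647.2.S1_a_at at NF36 (0.01), so they do not compare the stages.

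Markers of several cell types also differed between Ptf1a and GFP arrays, some higher and some lower. Over all probe sets 1.96% were called higher at NF32 and 3.59% at NF36 (5.03% and 12.6% with the block). Called lower were 274 of 22855 at NF32 and 446 of 23614 at NF36 (958 and 2554 with the block). Of 23 neuron marker copies, 16 were called at NF32, all higher (18 with the block), with a median change of 1.25. Their summed intensity was 799 to 964 on GFP and 3041 to 3383 on Ptf1a arrays. The growth cone gene stmn2.L had the smallest p, from 3.63 ± 2.17 to 121 ± 15.3 (2.80 ± 0.12, limma adjusted p = 7.30e-04). At NF36, 5 of 23 were called, all higher. With the block 10 were called higher and 2 lower, ncam1.L (-0.18 ± 0.10, adjusted p = 0.396, blocked 0.0355) and mapt.S (-0.38 ± 0.16, adjusted p = 0.252, blocked 0.00588), named after their values were seen. The sums were 561 to 653 and 810.3 to 1312. The highest Ptf1a sum of NF36 was that of replicate 1, where 20 of the 23 copies had their highest Ptf1a value. Neuron markers with the smallest p at NF36 were tubb2b.S (0.66 ± 0.09, adjusted p = 0.00725), syt1.L (0.55 ± 0.09), prph.L (1.11 ± 0.19) and prph.S (1.12 ± 0.24).

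Neural crest cells, which arise where zic1 acts at the neural plate border, gave 11 marker copies. None was called at NF32 without the block. At an unadjusted p under 0.05 in limma there were 6, against 16.2% of all probe sets. With the block 4 were called, all higher, against 5.03% of all called higher. The smallest p were those of sox10.L (1.30 ± 0.31, adjusted p = 0.0813, and 0.0115 with the block) and sox8.L (0.64 ± 0.17, adjusted p = 0.114, and 0.0412 with the block). The sums of the 11 copies were 1145 to 1306 on GFP and 1303 to 1625 on Ptf1a arrays. At NF36, 2 were called higher, against 3.59% of all probe sets. They were pax3.L (437 ± 49.1 to 701 ± 46.4, 0.67 ± 0.09, adjusted p = 0.00859) and msx1.S (0.40 ± 0.09, adjusted p = 0.0381). With the block 6 were called higher, against 12.6% of all, and the sums were 622 to 688 and 914 to 1057.

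Of 5 retina, lens and placode copies none was called at NF32, with sums of 250.4 to 357 and 255 to 304. At an unadjusted p under 0.05 in limma there was 1, against 16.2% of all probe sets. The smallest p were those of pitx3.S (-0.31 ± 0.10, adjusted p = 0.167) and pitx3.L (-0.22 ± 0.11, adjusted p = 0.366). At NF36 both copies of the placode and epidermis gene dlx3 were called higher, dlx3.S by 0.92 ± 0.14 (adjusted p = 0.0123) and dlx3.L by 0.73 ± 0.09 (adjusted p = 0.00589), with sums of 32.9 to 59.1 and 73.1 to 90.2. Of the epidermis copies 1 of 13 was called higher at NF32, krt70.L (1.16 ± 0.16, adjusted p = 0.0169), and 10 of 12 at NF36 (12 with the block), where sums were 1899 to 3287 on GFP and 5409 to 6724 on Ptf1a arrays. The NF36 epidermis gene with the smallest p was the epidermal factor grhl3.S (0.93 ± 0.10, adjusted p = 0.00545).

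Of 6 skeletal muscle copies none was called at NF32, with sums of 1199.9 to 2516 and 2906 to 5041. At an unadjusted p under 0.05 in limma there were 4, against 16.2% of all probe sets. The smallest p were those of actc1.L (0.75 ± 0.18, adjusted p = 0.0877) and mylpf.L (3.32 ± 0.96, adjusted p = 0.141). actc1.L made up a large part of the sums, at 1158, 1061 and 1408 in GFP and 1671, 2628 and 1913 in Ptf1a replicates 1 to 3. Whether heart muscle gave part of its signal was not tested. mylpf.L read 18.4, 39.5 and 509 in GFP and 820, 1639 and 703 in Ptf1a replicates 1 to 3. At NF36 2 of 8 were called lower, myog.S (-0.83 ± 0.18, adjusted p = 0.0334) and myog.L (-0.51 ± 0.10, adjusted p = 0.0224), and 3 with the block. Of all 23614 probe sets 446 were called lower (2554 with the block). myog encodes a myogenic regulator, while 4 of the 8 copies, all of contractile or muscle metabolism genes, had changes above 0 that were not called, from 0.65 for actc1.L to 0.89 for ckm.L. The sums at NF36 were 757 to 1389 on GFP and 1332 to 2294 on Ptf1a arrays. Of 14 endoderm copies at NF32 none was called higher and 2 were called lower (6 with the block), foxa1.L (-0.69 ± 0.11, adjusted p = 0.0272) and gata6.L (-0.50 ± 0.08, adjusted p = 0.0289). Of all 22855 probe sets of NF32, 274 were called lower (958 with the block). Of 15 endoderm copies at NF36, 1 was called higher and 1 lower (4 lower with the block): gata4.S (0.34 ± 0.07, adjusted p = 0.0347) and hnf4a.S (-0.42 ± 0.10, adjusted p = 0.0450), with sums of 4306 to 4739 and 4107 to 4722. With 1 array left out at a time, gata6.L was called in 0 of 6 fits (adjusted p 0.0611 to 0.115), foxa1.L in 1 of 6 (0.0451 to 0.124), gata4.S in 2 of 8 (0.0298 to 0.0955) and hnf4a.S in 1 of 8 (0.0480 to 0.118). Of the markers above, krt70.L was called in 2 of 6 such fits, msx1.S and myog.S in 2 of 8, myog.L and prph.S in 3 of 8, prph.L in 5 of 8 and syt1.L in 7 of 8. No marker copy of these lists read 0 on every array of a group. The part of any of these tissues in the values of the 10 probe sets was not tested.

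The genes whose intensities ran most like each factor were found over the 6 arrays of NF32 and the 8 of NF36, taking the lower of both Pearson correlations among 6823 brighter probe sets with 1 symbol. These are the highest of many, they include the difference between groups, and they are given as a description. For ebf2.S they were the neuronal filament gene prph.S (0.95) and the Notch target gene hey1.S (0.94). For neurod1.S they were mycn.L (0.97) and mycn.S (0.96), copies of a gene of growth and proliferation with probe sets of a kind that can read both, and for neurod1.L cetn3.L (0.94) and mycn.L (0.93). For sox3.S they were the matrix proteoglycan gene vcan.L (0.96) and the histone gene h3-3b.L (0.95), and for sox3.L the growth factor gene ptn.L (0.91) and nt5dc2.S (0.90). For sox1.S they were fabp7.L (0.92), a fatty acid-binding protein gene of neural progenitors, and ugcg.S (0.85). The brighter zic1.S probe set ran most like mthfd2l.S (0.89) and plk2.S (0.87), otx1.L most like nabp2.L (0.93) and rnd1.L (0.91), and ebf2.L, with the least likeness, like ip6k2.S (0.83) and anp32a.L (0.82).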

How the data were processed

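Total RNA from dissected anterior endoderm was measured on 14 Affymetrix 3' arrays. The authors deposited 1 linear intensity value per probe set and array. PLIER is listed per the submitters' processing notes, with no version; the sources used here do not say how values were scaled or probe sets chosen. Array means show that each stage was scaled apart. Gene symbols came from the platform annotation, which gave 1 symbol to 12795 probe sets, several to 238 and none to 11185.

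Values were taken as log2(value + 16) without further normalization. Ptf1a and GFP arrays of a stage, and the difference between stages, were compared by the moderated test of limma (version 3.58.1, run in R 4.3.3, 2-sided), with Benjamini-Hochberg adjustment over all probe sets fitted. The procedure was tested on simulated data with independent noise. That simulation had no pairing of arrays, and its planted changes were larger than most changes of the member genes. It therefore does not show how well changes of their size are called. The number of arrays limits the precision.

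The labels number the samples of a stage alike and say that control and Ptf1a samples shared a batch of embryos. Same-numbered arrays were taken as pairs on this ground. Departures from the group mean correlated over probe sets at 0.711, 0.297 and 0.416 in the pairs of NF32 and at 0.639 to 0.765 in those of NF36. Between GFP and Ptf1a arrays of unlike number they correlated at -0.525 to 0.257 at NF32 and at -0.426 to 0.022 at NF36. Blocked values stand beside each named gene whose call they change and each list whose count they change.

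The members and gene lists were chosen with earlier results of these data known. Named genes were all members, up to 4 called genes of each list by p at each stage (or the 2 smallest p), and the 2 genes most like each member; a listed gene with several probe sets was given by the one with the highest mean. The alternatives tried were an offset of 1 or 64, median centring, quantile normalization, a floor at the 40th percentile of mean intensity, array weights (statmod 1.5.0), a trended and robust variance prior, the replicate block, and leaving out each array. The list counts and the .S against .L comparison under alternatives were added after the data were seen.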

Additional observations from a re-analysis of the deposited data

Results flagged for a closer look

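For each probe set the highest or lowest of the 4 arrays of an NF36 group was checked for its distance to the others. Of 20 such groups 4 had an array that stood apart. The cut-off is passed by about 1 in 20 separate groups of normally distributed values. These groups share the same arrays and many of their values lie near 0, so the count is a description and not a test. In the Ptf1a group sox1.S read 16.4 in replicate 1, with 2.6 the nearest. In the GFP group replicate 2 stood above the others for 3 probe sets: ebf2.L at 16.9 (nearest 10.1), ebf2.S at 3.7 (nearest 2.8) and sox3.S at 3.7 (nearest 2.1). The 10 probe sets summed to 46.8 on that GFP array and to 27.9, 27.0 and 34.7 on GFP replicates 1, 3 and 4. Without that array the limma adjusted p was 0.114 for ebf2.L, 0.0980 for ebf2.S and 0.0716 for sox3.S, and the changes were 0.34, 0.75 and 0.46.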

How the results depend on the processing

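Of the 10 probe sets, the count called was 4 at each stage. At NF32 it was 1 with an offset of 64, 1 without probe sets below the 40th percentile, 7 with the replicate block and 1 to 3 without 1 array. At NF36 it was 1 with an offset of 64, 2 after quantile normalization, 0 without probe sets below the 40th percentile, 5 with the replicate block and 0 to 4 without 1 array. That filter left 3 of the 10 probe sets at NF32 and none at NF36, which sets those counts. The count with a different change between stages was 0, against 1 with median centring, 1 with a trended and robust prior, 1 with array weights, 3 with the replicate block and 0 to 2 without 1 array. Over all probe sets 723 were called at NF32, against 335 with that filter, 2107 with the block and 181 to 564 without 1 array. At NF36 1294 were called, against 788, 5531 and 408 to 1344. Between stages 173 were called, against 57 with the filter, 1217 with the block, 108 with an offset of 64, 372 with array weights and 45 to 353 without 1 array. The block changed the calls given beside the results. Within a stage the changes of the 10 probe sets kept their sign in every alternative except that of sox1.S at NF36, which ran from -0.076 to 0.218 without 1 array and was -0.076 without Ptf1a replicate 1. The difference between stages turned with an offset of 1 for ebf2.S (to 0.090), sox3.S (to 0.10) and sox3.L (to 0.49). For ebf2.L it was -0.0076 with an offset of 64 and -0.027 to 0.119 without 1 array, at -0.027 without GFP replicate 3 of NF32, -0.0089 without Ptf1a replicate 2 of NF32, -0.00405 without Ptf1a replicate 3 of NF32 and -0.012 without Ptf1a replicate 1 of NF36. The cause of these changes was not tested. Low intensities limit every value given here.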
